A study of Mus musculus with 10 samples.

Results

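The genes described here are the 10 that encode the core enzymes of branched-chain amino acid (BCAA) breakdown and the regulators of its committed step. They are *Bcat1*, *Bcat2*, *Bckdha*, *Bckdhb*, *Dbt*, *Bckdk*, *Ppm1k*, *Mccc1*, *Mccc2*, and *Ivd*. They were chosen by name, as known members of the pathway, with earlier results of these data known. The deposited transcripts could be assigned to 51717 genes, and all 10 were among the 12381 genes with enough reads to be tested. RNA was sequenced from granulocyte-macrophage progenitors (GMPs), the bone marrow cells that give rise to neutrophils and monocytes, in 5 WT and 5 recent *Mpc2* KO samples. *Mpc2* encodes a subunit of the mitochondrial pyruvate carrier, so the comparison asks which transcripts differ soon after cells lose the entry of pyruvate into mitochondria.

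WT cells were ROSA26 CreER+/- and KO cells were Mpc2fl/fl; ROSA26 CreER+/-. Both carried the tamoxifen-activated Cre from the ubiquitously active *ROSA26* locus, and both groups ate tamoxifen chow for 2 wk before collection. All were male mice of the strain C57Bl6/N, and their age was not used here. The cells were CD45.2+ donor GMPs sorted from mixed chimeras, irradiated CD45.1 recipients that also held CD45.1 marrow. Each WT sample was 1 mouse, whereas 2 mice were pooled for each recent KO sample, so a recent KO value averages over animals in a way that a WT value does not.

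Leucine, isoleucine, and valine are broken down in shared opening steps. A transaminase, cytosolic BCAT1 or mitochondrial BCAT2, moves the amino group to α-ketoglutarate, which yields glutamate and a branched-chain ketoacid. The branched-chain ketoacid dehydrogenase complex then removes carbon dioxide irreversibly in mitochondria. Its kinase BCKDK switches the complex off by phosphorylation and its phosphatase PPM1K switches it on. In the leucine branch, IVD oxidizes isovaleryl-CoA, and methylcrotonyl-CoA carboxylase, built from MCCC1 and MCCC2, acts next. In the blood system BCAT1 is known for its role in myeloid leukemias.

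The samples held 14033776 to 19745405 estimated reads. *Mpc2*, the targeted gene, had 60.9 to 117 CPM (read counts scaled to a common library size) in WT samples and 17.1 to 43.9 CPM in recent KO samples, a log2 fold change of −1.46 ± 0.24 (SE; edgeR's quasi-likelihood test, adjusted p = 0.0156). Every recent KO sample was below every WT sample, as the labels have it, although the adjusted p ran from 1.81e-08 to 0.138 over 11 alternative fits of all samples. Of all tested genes, 41 (0.331%) passed an adjusted p of 0.05, with 15 higher and 26 lower in recent KO. The 11 GMP markers summed to 87800 to 124000 CPM in WT samples and 51900 to 89800 CPM in recent KO samples, against 16.0 to 31.2 and 34.5 to 60.5 CPM for 7 macrophage markers. Most of the GMP sum came from *Mpo* (mean 60900 CPM in WT, 42300 CPM in recent KO) and *Elane* (24600 and 15900 CPM). Of the 11 GMP markers, 8 had a log2 fold change below 0 and 3, *Kit*, *Cd34*, and *Cd27*, above 0. Bulk RNA cannot tell fewer cells of a type from less RNA per cell.

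The 10 genes spanned a wide range of transcript levels in WT GMPs. On the TPM scale, which corrects for transcript length, *Bcat2* had 57.8 ± 3.79 (SD, n = 5), *Bckdha* 55.1 ± 8.95, and *Bckdk* 49.9 ± 2.82. These 3 genes were not separated, since their WT ranges overlapped. *Ivd* followed at 31.2 ± 2.87 TPM and *Bckdhb*, the second E1 subunit of the dehydrogenase, at 11.6 ± 1.85 TPM, each with a range of its own. *Mccc2* (6.65 ± 0.928 TPM), *Mccc1* (6.27 ± 1.16 TPM), and *Bcat1* (5.57 ± 0.853 TPM) formed a chain of overlapping ranges. *Dbt*, the E2 core of the dehydrogenase, was lower at 3.87 ± 0.866 TPM, and *Ppm1k*, the phosphatase, was the lowest of the 10 at 0.650 ± 0.147 TPM. Of the 2 BCAA transaminases, the mitochondrial *Bcat2* therefore had the more abundant transcript in these cells, and the kinase transcript far outnumbered that of the phosphatase.

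The levels of *Ivd* and *Dbt* depended on which transcripts were counted. *Ivd-205*, a noncoding transcript of 266 bases, and the noncoding *Ivd-207* took on average 33.3% and 17.1% of the TPM of *Ivd*, although only 11.0 and 82.5 estimated reads a sample fell on them. Counting protein-coding transcripts alone, *Ivd* had 13.6 ± 1.44 TPM in WT and 12.9 ± 1.63 TPM in recent KO. *Dbt-202*, a retained-intron transcript of 460 bases, took 27.9% of the TPM of *Dbt* with 5.47 reads a sample, and coding *Dbt* had 2.76 ± 0.560 TPM in WT and 2.64 ± 0.219 TPM in recent KO. For the other 8 genes, coding transcripts held on average 91.3% or more of the TPM. Short transcripts turn few reads into a large TPM, so the main test of each gene below uses reads. The ratios between genes are instead tested on TPM over all transcripts, which includes these short ones. For *Dbt* to *Bckdha* the log2 ratio differed by 0.19 on that scale, by −0.03 on CPM, and by −0.09 over protein-coding transcripts alone.

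**Figure D1:**
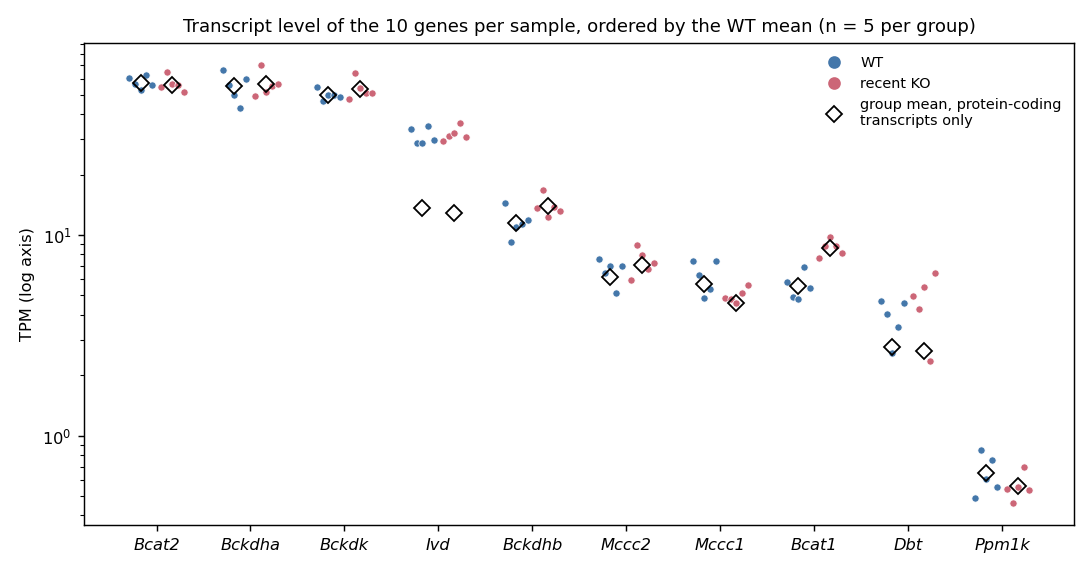
TPM (log axis) of the 10 genes in each of 5 WT and 5 recent KO samples, ordered by the WT mean, with diamonds for the group mean over protein-coding transcripts alone. *Bcat2*, *Bckdha*, and *Bckdk* lie between 43.2 and 70.7 TPM, and *Ppm1k* lies below 1 TPM. The diamonds fall well below every point for *Ivd* and below most points for *Dbt*.

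*Bcat1*, the cytosolic transaminase, was the 1 of the 10 genes that passed the test over all genes, as 0.331% of all tested genes did. WT samples 1 to 5 had 15.6, 14.2, 15.2, 21.9, and 15.4 CPM, and recent KO samples 1 to 5 had 23.7, 24.5, 27.5, 24.3, and 22.8 CPM. Every recent KO sample was above every WT sample, a separation found in 2.43% of all tested genes, and WT sample 4 stood above the other WT samples. The log2 fold change was 0.58 ± 0.11 (SE; edgeR adjusted p = 0.0468), a 1.5-fold higher level with a 95% confidence interval of 1.27 to 1.77. The direction held whichever sample was left out, with a log2 fold change of 0.53 to 0.70. The adjusted p stayed under 0.05 without WT sample 4 (0.0017) or without recent KO sample 2 (0.0493), and it lay between 0.0677 and 0.15 without any of the other 8 samples. With all samples, it was 0.000518 in DESeq2, 0.0649 in limma on log2(TPM + 1), and 0.0837 in edgeR with a transcript length offset. The call therefore sits at the edge of the threshold.

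*Bcat1* (ENSMUSG00000030268) lies on the minus strand of chromosome 6, from 144993835 to 145076184 in GRCm38, and its RefSeq entries have 2 start sites. *Bcat1-203*, which begins at the distal start, held on average 97.5% of the *Bcat1* TPM. Transcripts from the distal start had 5.51 ± 0.834 TPM in WT and 8.63 ± 0.805 TPM in recent KO, whereas the single transcript from the proximal start had 0.00833 ± 0.00743 TPM and 0.0274 ± 0.0209 TPM. The distal start thus carried the difference: *Bcat1-203* had a log2 fold change of 0.58 ± 0.12 and an unadjusted p of 0.000622, though an adjusted p of 0.359 (edgeR over 26185 transcripts). The bases directly upstream of the starts are printed from RefSeq (GRCm38.p6) to set the used *Bcat1* start beside the nearly unused start and beside that of *Bcat2*, all 5′ to 3′, up to the outermost annotated start. Capitals mark ACGTG, the core of hypoxia response elements, on either strand.
*Bcat1* distal start, chr6:145076185-145076407, minus strand: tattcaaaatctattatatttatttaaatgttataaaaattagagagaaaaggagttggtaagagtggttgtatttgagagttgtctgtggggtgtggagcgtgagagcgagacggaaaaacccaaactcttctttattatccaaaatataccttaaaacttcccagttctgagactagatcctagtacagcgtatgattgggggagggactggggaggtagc
*Bcat1* proximal start, chr6:145048813-145049062, minus strand: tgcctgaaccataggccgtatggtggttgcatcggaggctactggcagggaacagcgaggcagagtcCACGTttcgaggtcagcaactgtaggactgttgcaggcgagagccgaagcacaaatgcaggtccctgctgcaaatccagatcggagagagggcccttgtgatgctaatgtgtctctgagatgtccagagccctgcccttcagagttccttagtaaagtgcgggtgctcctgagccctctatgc
*Bcat2* upstream start, chr7:45569903-45570152, plus strand: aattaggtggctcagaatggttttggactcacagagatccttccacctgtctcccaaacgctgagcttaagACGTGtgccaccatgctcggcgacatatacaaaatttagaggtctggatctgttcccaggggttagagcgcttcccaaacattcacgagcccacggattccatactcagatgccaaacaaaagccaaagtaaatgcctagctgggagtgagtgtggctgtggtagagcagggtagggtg

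The 250 bases before the distal *Bcat1* start had a GC content of 37.6% and 5 CpG dinucleotides, and those before the proximal start 56.4% and 9, against medians of 52.4% and 6 over 32851 RefSeq windows of the same length. CACGTG, the E-box that MYC binds and which contains ACGTG, was in neither *Bcat1* window and in 6.02% of all windows. ACGTG was in the proximal *Bcat1* window and in the *Bcat2* window shown, and in 16.6% of all windows. TGATGNAA, a core of amino acid response elements, was in none of the 12 windows found for 9 of the 10 genes, and in 3.45% of all windows, both strands being searched. Of the 12 windows, that of *Mccc2* alone held CACGTG. These are matches of letters in short windows and were not tested against the expression values.

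*Bcat2*, the mitochondrial transaminase, did not pass the test. Its WT samples 1 to 5 had 109, 110, 109, 130, and 103 CPM, and its recent KO samples 1 to 5 had 110, 115, 103, 102, and 94.9 CPM. The groups overlapped, and WT sample 4 was again the highest WT sample. The log2 fold change was −0.10 ± 0.07 (SE; edgeR adjusted p = 0.717), and the 95% interval of the fold change ran from 0.839 to 1.04. *Bcat2-201*, which begins at position 45570153 of chromosome 7, held 98.3% of the TPM. An antisense gene, 0610005C13Rik, overlaps *Bcat2* with 12.6% of the 31-base words of *Bcat2-201* in common, but it had only 0.557 (WT) and 0.437 (recent KO) CPM.

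The balance between the transaminases was compared as the ratio of *Bcat1* to *Bcat2* TPM within each sample. It was 0.0960, 0.0861, 0.0906, 0.110, and 0.0966 in WT samples 1 to 5 and 0.141, 0.137, 0.174, 0.157, and 0.157 in recent KO samples 1 to 5. The groups did not overlap, and WT sample 4, high in both transcripts, was less far from its group in the ratio than in *Bcat1* alone. *Bcat1* thus made up 7.93% to 9.95% of the summed *Bcat1* and *Bcat2* TPM in WT and 12.1% to 14.8% in recent KO. The log2 ratio was −3.39 ± 0.13 in WT and −2.71 ± 0.14 in recent KO (SD, n = 5 each), a difference of 0.68 (two-sided exact permutation p = 0.00794, which 5 against 5 samples cannot go below, and 0.0397 after adjustment over the 5 ratios compared). Without any 1 sample the difference was 0.63 to 0.73. Because *Bcat1* enters the ratio, this is not independent of the test of *Bcat1* itself. *Bcat2* remained the more abundant BCAA transaminase transcript in every sample of both groups.

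**Figure D2:**
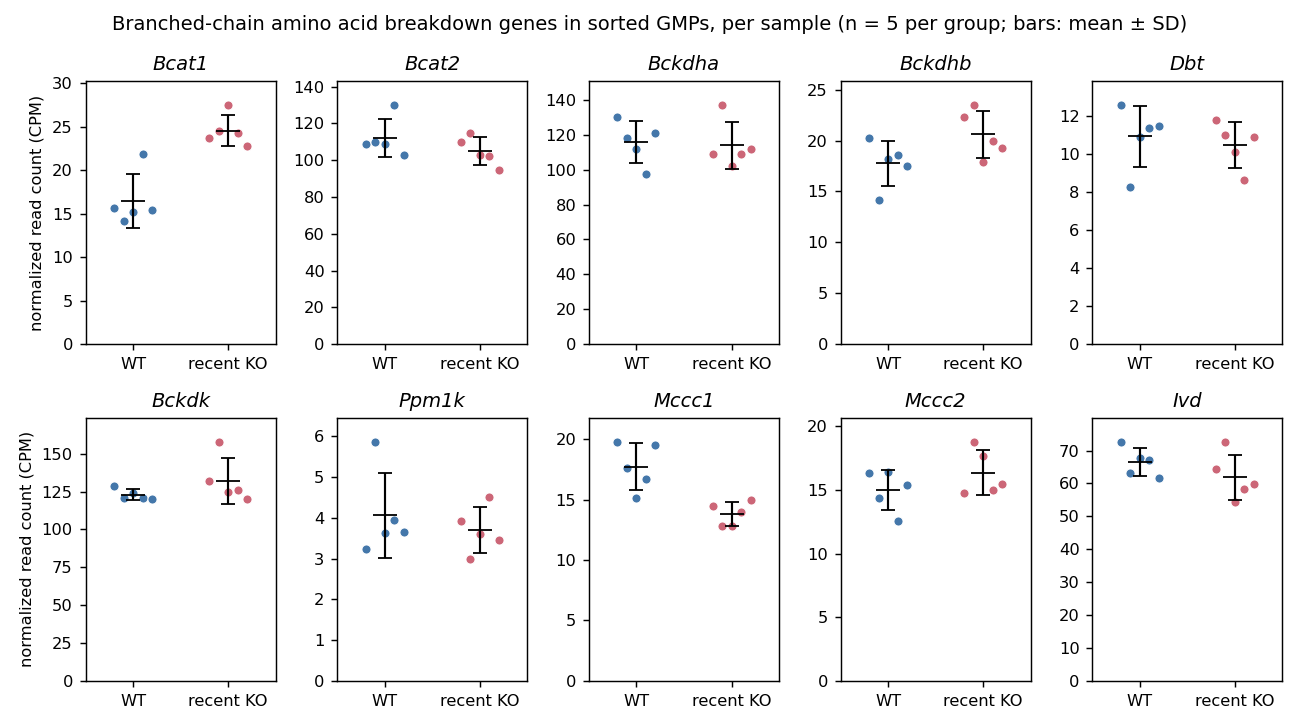
Normalized read count (CPM, each axis from 0) of each of the 10 genes in 5 WT and 5 recent KO samples, with the mean ± SD as bars. The groups are apart for *Bcat1*, higher in recent KO, and by a small margin for *Mccc1*, lower in recent KO, and they overlap for the other 8 genes.

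The subunits of the branched-chain ketoacid dehydrogenase did not pass the test. *Bckdha*, the E1α subunit, had 97.4 to 130 CPM in WT samples and 102 to 137 CPM in recent KO samples, with a fold change of 0.983 (95% interval 0.861 to 1.12). *Bckdhb*, its E1β partner, had 14.2 to 20.3 CPM in WT samples and 17.9 to 23.5 CPM in recent KO samples, with a fold change of 1.16 (0.988 to 1.36, edgeR adjusted p = 0.526). *Dbt* had 8.30 to 12.6 CPM in WT samples and 8.63 to 11.8 CPM in recent KO samples, with a fold change of 0.956 (0.794 to 1.15). All 3 groups of values overlapped, and the intervals leave room for changes of up to about 1.36-fold. The gene *B3gnt8*, on the opposite strand, shares 55.4% of the 31-base words of *Bckdha-201*, so the division of reads between the 2 genes is uncertain. *B3gnt8* had 38.5 (WT) and 36.6 (recent KO) CPM (edgeR adjusted p = 0.875).

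Within the dehydrogenase, *Bckdha* exceeded *Bckdhb* 3.77- to 6.05-fold in WT and 3.57- to 4.28-fold in recent KO on the TPM scale. The log2 ratio differed by −0.23 (exact permutation p = 0.0952, adjusted over the 5 ratios 0.159). That of *Dbt* to *Bckdha* differed by 0.19 (exact permutation p = 0.540), and it was −0.09 when only protein-coding transcripts were counted. Neither ratio differed beyond the spread between samples. The *Bckdha* to *Bckdhb* difference was −0.31 with an exact permutation p of 0.00794 without WT sample 4.

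The regulators of the dehydrogenase did not pass the test either. *Bckdk*, the kinase, had 120 to 129 CPM in WT samples and 120 to 158 CPM in recent KO samples, with a fold change of 1.07 (95% interval 0.966 to 1.19). Recent KO sample 2 was the highest sample, as it also was within its group for *Bcat2*, *Bckdha*, *Bckdhb*, *Mccc2*, and *Ivd*. The *Bckdk* TPM lay mainly on 2 coding transcripts, *Bckdk-202* with 62.9% and *Bckdk-201* with 30.2% of the TPM, and neither passed (edgeR adjusted p = 0.947 and 0.888 over transcripts). *Ppm1k*, the phosphatase, had 3.23 to 5.87 CPM in WT samples and 3.00 to 4.50 CPM in recent KO samples, with a fold change of 0.910 (0.685 to 1.21). With 65.9 reads a sample on average, *Ppm1k* had the widest interval of the 10 genes. The TPM of *Bckdk* was 55.2 to 111 times that of *Ppm1k* in WT and 73.6 to 139 times in recent KO, and the groups overlapped (difference of the log2 ratio 0.30, exact permutation p = 0.238).

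In the leucine branch, *Mccc1*, the biotin-carrying subunit of methylcrotonyl-CoA carboxylase, was the other gene whose groups did not overlap. WT samples 1 to 5 had 19.8, 17.6, 15.1, 16.7, and 19.5 CPM, and recent KO samples 1 to 5 had 14.5, 12.8, 12.8, 14.0, and 15.0 CPM. The margin was narrow, with WT sample 3 barely above recent KO sample 5. The log2 fold change was −0.36 ± 0.10 (SE), a fold change of 0.779 (95% interval 0.676 to 0.897), with an unadjusted p of 0.00207 and an adjusted p of 0.185 (edgeR). *Mccc1* therefore did not pass over all genes. *Mccc2*, its partner, had 12.6 to 16.4 CPM in WT samples and 14.8 to 18.8 CPM in recent KO samples, with a fold change of 1.09 (0.934 to 1.26, edgeR adjusted p = 0.761).

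The ratio of *Mccc1* to *Mccc2* TPM was 0.972, 0.974, 0.691, 1.05, and 1.06 in WT samples 1 to 5 and 0.816, 0.537, 0.580, 0.759, and 0.779 in recent KO samples 1 to 5. The groups overlapped because WT sample 3 lay among the recent KO samples. The log2 ratio differed by −0.45 (exact permutation p = 0.0317), which did not pass after adjustment over the 5 ratios (0.0793). Its unadjusted p was between 0.0556 and 0.0714 without WT sample 1, 2, 4, or 5 or recent KO sample 2 or 3. Of the opposite-strand genes that overlap *Mccc1*, Gm15952 had 1.49 (WT) and 2.34 (recent KO) CPM and Mccc1os 0.569 and 0.333 CPM. Together with Mccc1os, Gm15952 shares 9.86% of the 31-base words of *Mccc1-201*.

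*Ivd*, isovaleryl-CoA dehydrogenase, had 61.7 to 72.7 CPM in WT samples and 54.4 to 72.5 CPM in recent KO samples. The fold change was 0.929 (95% interval 0.824 to 1.05, edgeR adjusted p = 0.722), and the groups overlapped. In direction *Ivd* went with *Mccc1* on the read scale, but its TPM over all transcripts was 31.2 ± 2.87 in WT and 32.0 ± 2.61 in recent KO (SD, n = 5 each). Over protein-coding transcripts alone it was 13.6 ± 1.44 TPM in WT and 12.9 ± 1.63 TPM in recent KO. The direction on the TPM scale therefore depended on whether noncoding transcripts were counted.

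**Figure D3:**
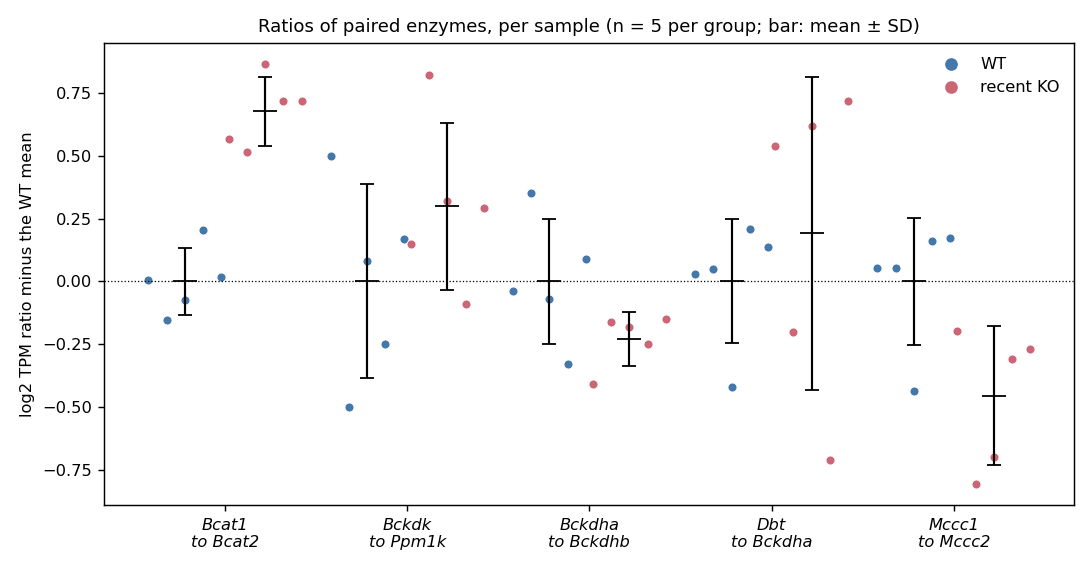
Log2 TPM ratio of 5 enzyme pairs in each sample, as the difference from the WT mean, with the mean ± SD of 5 WT and 5 recent KO samples. For *Bcat1* to *Bcat2* all recent KO samples lie above all WT samples, with means 0.68 apart, and for the other 4 pairs the groups overlap.

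Over the 10 genes, 1 passed the adjusted threshold, against 0.331% of all tested genes. Because the 10 were chosen with earlier results of these data known, the shares given here are background and not a test of enrichment. The groups did not overlap for 2 of the 10, *Bcat1* and *Mccc1*, against 2.43% of all tested genes, and the same 2 had an unadjusted p under 0.05, against 10.2%. The 10 genes did not move one way: 4 had a log2 fold change above 0 and 6 below, with a median of −0.04 beside −0.00181 over all tested genes. Of their 19 tested transcripts 0 passed in edgeR, the only tool run on transcripts, against 0.042% of all tested transcripts. The lowest unadjusted p among the 19 were those of *Bcat1-203* and *Mccc1-201* (0.000622 and 0.0181 in edgeR).

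No further gene of the pathway passed the test. The 18 further genes of BCAA breakdown ran from the mitochondrial BCAA carrier *Slc25a44* and the shared E3 subunit *Dld* to the propionyl-CoA steps. Of these, 0 passed in edgeR, DESeq2, or limma, against 0.331% of all tested genes in edgeR. An unadjusted edgeR p under 0.05 was found for 1, against 10.2% of all tested genes. The median log2 fold change of the 18 was 0.01, with 11 above 0 and 7 below. None had groups that were apart, against 2.43% of all tested genes. The largest differences among them were those of *Mcee*, methylmalonyl-CoA epimerase (−0.22 ± 0.10, SE), *Mmaa*, which serves the cobalamin cofactor of methylmalonyl-CoA mutase (0.14 ± 0.13), and *Aldh6a1* of the valine branch (0.10 ± 0.13). *Mcee* had 62.8 to 71.9 CPM in WT samples and 43.1 to 65.9 CPM in recent KO samples (edgeR adjusted p = 0.486). The lowest *Mcee* value was that of recent KO sample 2.

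**Figure D4:**
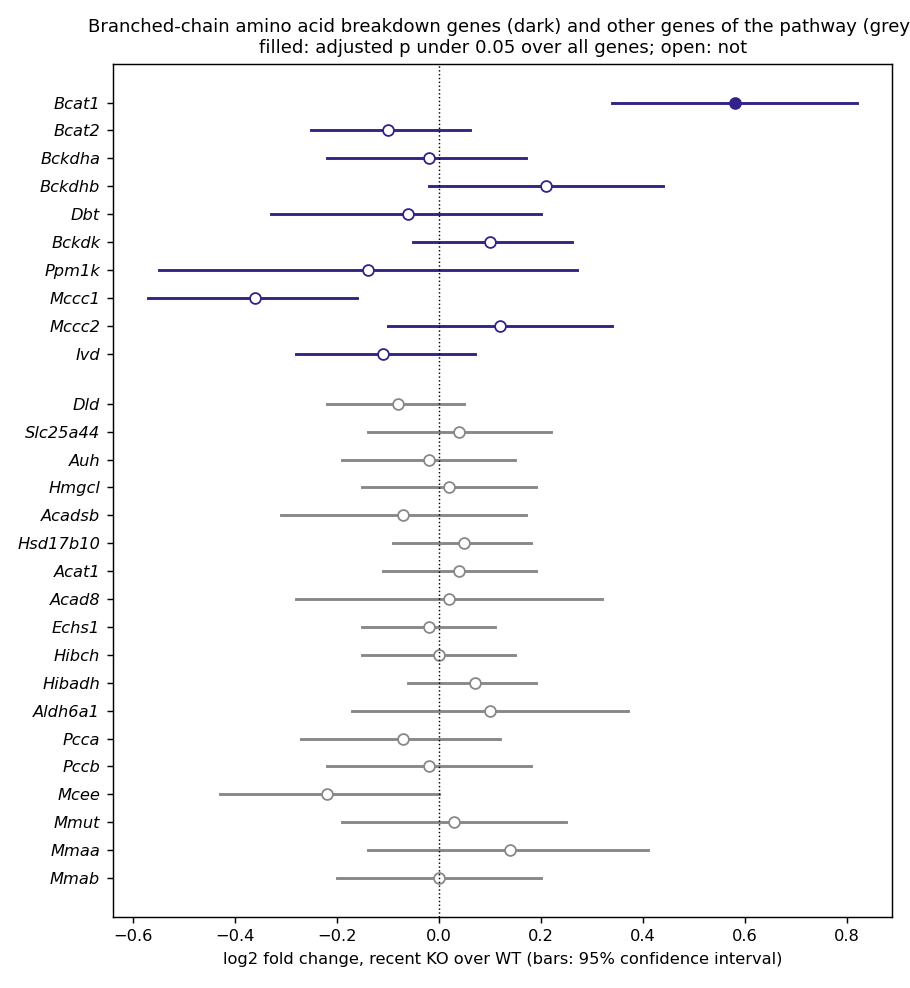
Log2 fold change (recent KO against WT) with its 95% confidence interval for the 10 genes (dark) and 18 further genes of the pathway (grey). *Bcat1* at 0.58 is the only filled point, which marks an adjusted p under 0.05, and the 18 further genes lie between −0.22 and 0.14.

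Outside the breakdown steps, 0 of 5 genes of BCAA uptake, 0 of 5 of leucine sensing, 0 of 8 tested aminotransferases of glutamate and related substrates, and 0 of 11 tested genes of the sister pyruvate and oxoglutarate dehydrogenases passed in edgeR, DESeq2, or limma. At an unadjusted edgeR p under 0.05 the counts were 2, 0, 1, and 1. Over all tested genes, 0.331% passed in edgeR and 10.2% had an unadjusted p under 0.05. The uptake genes all had fold changes above 0 (median log2 fold change 0.16), the highest being that of the transporter *Slc7a8* (0.45 ± 0.18, SE, edgeR adjusted p = 0.421). A few further genes were chosen after their values were seen. *Glul*, which makes glutamine from the glutamate that transaminases yield, had 34.4 to 39.1 CPM in WT samples and 42.9 to 51.9 CPM in recent KO samples, so its groups did not overlap (log2 fold change 0.35 ± 0.07, edgeR adjusted p = 0.0770). *Msi2*, an RNA-binding protein that is known to act on *Bcat1* in leukemia, had 5.43 to 8.31 CPM in WT samples and 7.82 to 17.1 CPM in recent KO samples (0.66 ± 0.18, edgeR adjusted p = 0.199). Of the 3 tested genes in this list of regulators 0 passed in edgeR and limma and 1, *Msi2*, in DESeq2, where *Glul* passed too. DESeq2 called 156 of the 14360 genes to which it gave an adjusted p. The log2 fold changes of the other 2 tested regulators were 0.20 ± 0.07 for *Myc* and −0.19 ± 0.12 for *Hif1a* (SE). *Pdha1*, the E1α subunit of pyruvate dehydrogenase, had 93.2 to 101 CPM in WT samples and 103 to 127 CPM in recent KO samples (0.18 ± 0.06, edgeR adjusted p = 0.330).

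Markers of other blood cells differed between the groups alongside these results. Of 7 macrophage markers, *C1qa*, *C1qb*, and *C1qc* rose (edgeR over all genes), and DESeq2 called 4, these and *Cd5l*. The list did not move as 1: *Adgre1* had a log2 fold change of −0.39 ± 0.21 and *Vcam1* of 0.18 ± 0.23 (SE), and neither passed. The list summed to 16.0 to 31.2 CPM in WT samples and 34.5 to 60.5 CPM in recent KO samples. Of 5 lymphoid markers 1 was tested, and that gene, *Ighm*, fell. The lymphoid list summed to 98.8 to 141 CPM in WT samples and 47.3 to 92.9 CPM in recent KO samples. No marker passed in edgeR among the 11 for GMPs, 5 for stem and multipotent cells, 6 for neutrophils, 5 for monocytes, 5 for erythroid cells, 4 for megakaryocytes, and 4 for mast cells and basophils, where 6, 1, 4, 4, 2, 2, and 1 had an unadjusted p under 0.05 and DESeq2 called 2, 0, 0, 1, 0, 1, and 1. Of all tested genes, 10.2% had an unadjusted edgeR p under 0.05 and 0.331% passed in edgeR. DESeq2 called 156 of the 14360 genes to which it gave an adjusted p. The markers with an unadjusted edgeR p under 0.05 were all lower in recent KO for GMPs and monocytes, and all higher for the rest of these lists. Other markers went the other way. *S100a8* of the neutrophil list (log2 fold change −0.08 ± 0.43, SE) and *Ms4a2* of the mast cell and basophil list (−0.20 ± 0.49) were lower. The GMP markers *Kit*, *Cd34*, and *Cd27* were higher. The summed monocyte markers were 2270 to 3620 CPM in WT samples and 804 to 3260 CPM in recent KO samples, those of neutrophils 110 to 416 and 101 to 723 CPM, and those of erythroid cells 5.43 to 23.4 and 12.4 to 120 CPM. No marker of any list was at 0 in all 10 samples. The part of these cells in the *Bcat1* and *Mccc1* results was not tested.

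The nearest tested neighbors of *Bcat1* on chromosome 6 did not pass the test. *Lrmp*, 39.5 kb away, had 75.7 (WT) and 76.5 (recent KO) CPM, and *Etnk1*, 1760 kb away on the other side, 14.9 and 15.8 CPM (edgeR adjusted p = 0.974 and 0.871). Those of *Mccc1* on chromosome 3 were *Dcun1d1* (69.7 and 66.9 CPM) and *Acad9* (51.5 and 44.5 CPM), with adjusted p = 0.870 and 0.420. *Acad9*, itself a mitochondrial acyl-CoA dehydrogenase, had a log2 fold change of −0.21 ± 0.09.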

How the data were processed

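RNA-seq of sorted GMPs from 5 WT and 5 recent *Mpc2* KO samples was analyzed, grouped by the sample labels. The authors sequenced SMARTseq libraries as paired-end reads, with a kit that does not mark strand, and quantified Gencode M27 (GRCm39) transcripts with Salmon (version 1.5.1 in the submitters' processing notes). The authors deposited, per transcript, estimated counts of reads, which are not normalized, and TPM, scaled by Salmon to transcript length and to a fixed total. Their deposited effective lengths served only a length offset. A deposited table of the authors' own comparison (DESeq2, 2.11.40.6 in the notes), with fold changes and p-values, was not used.

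Transcripts were assigned to genes by Ensembl identifier in GENCODE M21 (GRCm38), where 137161 of 140789 (97.4%) matched. The rest held 0.348% to 0.390% of reads and was left out. Positions are those of GRCm38. Samples held 14033776 to 19745405 reads, of which 3 counts equal 0.153 to 0.215 CPM, a floor that covers counting error only. No 2 samples were identical.

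The reads of a gene's transcripts were added up, rounded to integers, and tested with edgeR 4.0.16 (R 4.3.3, quasi-likelihood test, TMM, filterByExpr with a minimum count of 10, condition as the only term, Benjamini-Hochberg adjustment over all genes). CPM are TMM-normalized. Two-sided exact permutation tests were used for TPM ratios, and genes between each other only on TPM. The biological replicates of the labels came from separate mice or pools. Alternatives were other normalizations (RLE, upper quartile, library size), filters (none, a mean count of at least 50), a length offset, robust dispersions, a replicate block, DESeq2 1.42.0, limma 3.58.1 on log2(TPM + 1) and log2(TPM + 0.1) of genes that reach a mean of 1 TPM, and leaving out samples. Scripts were tested on simulated data. The upstream windows came from a RefSeq table (GRCm38.p6), and shared sequence was counted as 31-base words in M21 transcripts.

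The 10 genes and all lists were chosen with earlier results of these data known. Named genes are the 10, *Mpc2*, listed genes with an adjusted p under 0.05, and, of the further pathway genes, those whose groups did not overlap and the 3 with the largest log2 fold change at a mean count of at least 50. Transcripts are named at a mean share of at least 5%. *Mmut* is listed as *Mut* in M21.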

Additional observations from a re-analysis of the deposited data

Results flagged for a closer look

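Samples far from the rest of their group were sought in 32 groups of 5 values (the 10 genes, *Mpc2*, and the 5 ratios, each in WT and recent KO). Chance marks about 1 in 20 such groups, or 1.6 of 32, and 5 were marked.

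*Bcat1* had 21.9 CPM in WT sample 4, against 14.2 to 15.6 CPM in the other WT samples, and *Bcat2* had 130 CPM in the same sample, against 103 to 110 CPM. With WT sample 4 left out, *Bcat1* had a log2 fold change of 0.70 and its edgeR adjusted p 0.0017. *Bckdha* had 137 CPM in recent KO sample 2, against 102 to 112 CPM in the others of its group. *Ppm1k* had 5.87 CPM in WT sample 2, against 3.23 to 3.96 CPM in the other WT samples, and without it the log2 fold change of *Ppm1k* was 0.04 rather than −0.14. The ratio of *Mccc1* to *Mccc2* TPM was 0.691 in WT sample 3, against 0.972 to 1.06 in the other WT samples. The causes were not tested.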

How the results depend on the processing

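The direction of *Bcat1*, *Bcat2*, *Bckdhb*, *Bckdk*, *Mccc1*, *Mccc2*, and *Mpc2* held under every alternative, and *Mccc1* did not pass in any (adjusted p 0.0855 to 0.529 over the 11 alternatives that keep all samples). Directions turned for small differences only. With library sizes alone *Bckdha* was at 0.04 and *Dbt* at 0.00 on the log2 scale. *Dbt* was at 0.23 with the length offset, and limma on log2(TPM + 1) and log2(TPM + 0.1) gave *Bckdha* 0.04 and 0.04, *Dbt* 0.20 and 0.23, and *Ivd* 0.04 and 0.04. *Bckdha* was at 0.02 without WT sample 1 and 0.01 without recent KO sample 3 (range −0.10 to 0.02 over samples left out), and *Ppm1k* at 0.04 without WT sample 2 (−0.22 to 0.04). The *Dbt* to *Bckdha* ratio was −0.03 on CPM and −0.09 on coding transcripts.

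*Bcat1* passed in 6 of the 11 alternatives that keep all samples (adjusted p 0.000518 to 0.123), DESeq2 among them. None of the 10 genes, a count of 0, passed with a mean count of at least 50 (*Bcat1* adjusted p 0.0503), the length offset (0.0837), limma at either pseudocount (0.0649 and 0.0632), or the replicate block (0.123). *Mpc2* itself missed the threshold with the length offset (0.0731), robust dispersions (0.134), the replicate block (0.0577), limma (0.130 and 0.138), and without recent KO sample 1 (0.05). Over all genes 41 passed, but 206 without a filter, 156 in DESeq2, 25 and 24 in limma, and 20 with the replicate block. Without both WT sample 4 and recent KO sample 2, an alternative chosen after seeing the data, as were the coding-transcript ratios, 64 passed and *Bcat1* had a log2 fold change of 0.70 (adjusted p 0.00233). Leaving out each sample gave 25 to 91 genes (91 without recent KO sample 2) and 0 to 1 of the 10. The causes were not tested.

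Same-numbered samples did not deviate together (correlations −0.177 to 0.0576), so the numbers were not read as pairs. With the replicate block, as exact sign flips within numbers, no ratio can go below an exact p of 0.0625, which was the value of *Bcat1* to *Bcat2* (0.68) and *Mccc1* to *Mccc2* (−0.45). Leaving out each sample, the ratio differences were 0.63 to 0.73 for *Bcat1* to *Bcat2*, −0.56 to −0.37 for *Mccc1* to *Mccc2*, and −0.31 to −0.14 for *Bckdha* to *Bckdhb*.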
